A study of Mus musculus with 2 samples.

Results

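The cells described here were macrophages of 2 mouse tumours that were rich in RNA of a pair of marker genes, of which macrophage metalloelastase (Mmp12) is 1. They were chosen cell by cell. A cell had to hold at least 500 detected genes and at most 20% mitochondrial unique molecular identifiers (UMIs, each standing for 1 captured RNA molecule). It then had to pass a macrophage gate: at least 20 Lyz2 UMIs per 10000, at least 5 UMIs of C1qa, C1qb and C1qc together per 10000, at most 1 UMI of Cd3d, Cd3e and Cd3g, and at most 2 UMIs of Hmga2, Tnfrsf12a and Igf2bp2. Members of the group were gated cells with at least 3 UMIs of the pair together. There were 1635 members among 24830 cells in all, 1028 in the control tumour and 607 in the knockdown tumour. The remaining 5044 gated cells, with at most 2 such UMIs, are called the other gated macrophages.

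Both tumours are labelled as lung cancer xenografts of LLC, a Lewis lung carcinoma line of the mouse. The control tumour has only the treatment label "control", and the knockdown tumour received a short hairpin RNA against Gfpt2, an enzyme of the hexosamine pathway. Mouse strain, age, sorting and the number of animals pooled are not given in the labels, and each group was 1 library, so a difference between libraries and one between conditions cannot be told apart. No test was therefore made, and the 95% intervals, exact Poisson for UMI counts and exact Clopper-Pearson for shares of cells, cover counting error only.

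Tumour macrophages take on different states, some rich in antigen presentation and interferon-induced genes and others rich in genes of lipid handling, low oxygen and matrix turnover. Macrophage metalloelastase is a secreted protease that cuts elastin and other matrix proteins. Haem oxygenase (Hmox1) breaks down haem, osteopontin (Spp1) is a secreted matrix-binding protein, and Clec4d is a C-type lectin receptor of myeloid cells. Mmp12, Hmox1, Spp1 and Clec4d are markers given for the group, and of these 4 only Mmp12 took part in choosing the cells.

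The libraries held 11977 control cells with 165824226 UMIs and 12853 knockdown cells with 138402860 UMIs. After the quality steps Gfpt2 had 295 UMIs (1.78 CPM) in control cells and 81 UMIs (0.586 CPM) in knockdown cells. CPM, the field's usual depth-scaled level, is the summed UMIs of a gene over all UMIs of the same cells. Among the members Gfpt2 had 0 UMIs in the control tumour, which allows up to 0.368 CPM by a floor of 3 UMIs and up to 0.453 CPM by the exact interval, and 1 UMI in the knockdown tumour. The libraries shared 37 cell barcodes, 1 of them among the members.

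Members made up a larger share of the gated macrophages in the control tumour than in the knockdown tumour. In the control library 1028 of 3286 gated cells were members, 31.3% (29.7 to 32.9). In the knockdown library 607 of 3393 were, 17.9% (16.6 to 19.2), a ratio of knockdown over control of 0.572 (0.505 to 0.647). As shares of all cells after the quality steps, members were 8.83% in the control tumour and 4.83% in the knockdown tumour. The rule counts UMIs and the knockdown cells held fewer UMIs: the median member had 6958 UMIs in the control tumour and 5859 in the knockdown tumour, and the median of the other gated macrophages was 5397 and 3930. With every gated cell thinned to 3000 UMIs, 584 of 2867 control cells (20.4%, 18.9 to 21.9) and 325 of 2344 knockdown cells (13.9%, 12.5 to 15.3) reached 3 UMIs, a ratio of 0.681 (0.571 to 0.811). Thinning left out 419 shallower control cells and 1049 shallower knockdown cells. The knockdown share was the lower one at both depths, by a smaller factor in the thinned cells.

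Levels of the other markers on either side of the threshold differed by smaller ratios than those of all members and all others. Just outside it, cells with 2 UMIs of the pair had 767 CPM of Spp1 in the control tumour and 596 CPM in the knockdown tumour. Just inside it, cells with 3 UMIs had 1100 and 740 CPM. The same classes had 163 and 232 CPM of Hmox1 in the control tumour and 268 and 313 CPM in the knockdown tumour. Clec4d was at 16.9 and 34.9 CPM in the control tumour and at 35.9 and 53.9 CPM in the knockdown tumour. All 3 genes were higher in the class with 3 UMIs in both libraries.

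Cells of the T cell and tumour-like gates seldom reached 3 UMIs of the pair. Among cells of a T cell gate (at least 3 Cd3 UMIs, Lyz2 below the macrophage limit and within the limit on Hmga2, Tnfrsf12a and Igf2bp2), 13 of 695 control cells (1.87%) and 3 of 563 knockdown cells (0.533%) did so, at median depths of 2824 and 2631 UMIs. Among tumour-like cells, those past that limit with Lyz2 below its limit and at most 1 Cd3 UMI, the shares were 2.49% and 1.34% at medians of 21820 and 16794 UMIs. Both backgrounds were below the 31.3% and 17.9% of the gated macrophages. Summed Mmp12 was at 38.7 CPM in the T cell gate of the control tumour and 3.02 CPM in that of the knockdown tumour, against 5.56 and 6.54 CPM in the other gated macrophages, which the rule holds at 2 UMIs or fewer per cell.

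A UMI of Mmp12 was detected in fewer than 4 in 10 members, a share that depends on depth and does not limit how many of them express the gene. In the control library 399 of 1028 members (38.8%, 35.8 to 41.9) held a UMI of Mmp12, and in the knockdown library 235 of 607 (38.7%, 34.8 to 42.7) did. These shares differed between libraries by less than the counting intervals. Over all gated cells thinned to 3000 UMIs, Mmp12 was detected in 329 of 2867 control cells (11.5%, 10.3 to 12.7) and 198 of 2344 knockdown cells (8.45%, 7.35 to 9.65). The T cell gate, thinned alike, gave 3.74% and 1.68%.

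Mmp12 was at 435 CPM in control members (3546 UMIs) and 359 CPM in knockdown members (1469 UMIs), a log2 ratio of knockdown over control of -0.28 (-0.40 to -0.16). Its level in members was partly fixed by the rule, so it describes the members and supports nothing.

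The other 3 markers were several times higher in members than in the other gated macrophages of the same library. Hmox1 was at 575 CPM in control members against 146 CPM in the other macrophages, and at 609 against 164 CPM in the knockdown tumour. Spp1 was at 2146 against 435 CPM in the control tumour and at 1522 against 275 CPM in the knockdown tumour. Clec4d was at 72.9 against 17.8 CPM in the control tumour and at 91.5 against 20.8 CPM in the knockdown tumour. All 3 differences had the same direction in both libraries. The comparison is a description and no support for the markers, since these were given with earlier results of the same data known. The same libraries also chose the cells, and deeper cells reach 3 UMIs more easily.

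At 3000 UMIs per cell the markers were also found in more of the members. Spp1 was detected in 65.9% of thinned control members and 35.3% of the thinned other macrophages, and in 61.2% and 26.4% in the knockdown tumour, against a background of 11.8% and 16.4% in the T cell gate. Hmox1 was detected in 53.2% against 30.8% of control and in 63.1% against 31.5% of knockdown cells, with 7.17% and 3.78% in the T cell gate. Clec4d was detected in 22.6% against 5.65% of control and 27.7% against 5.89% of knockdown cells, with 1.56% and 0.840% in the T cell gate. Members without a UMI of a given marker were therefore common, most of all for Clec4d.

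**Figure D1:**
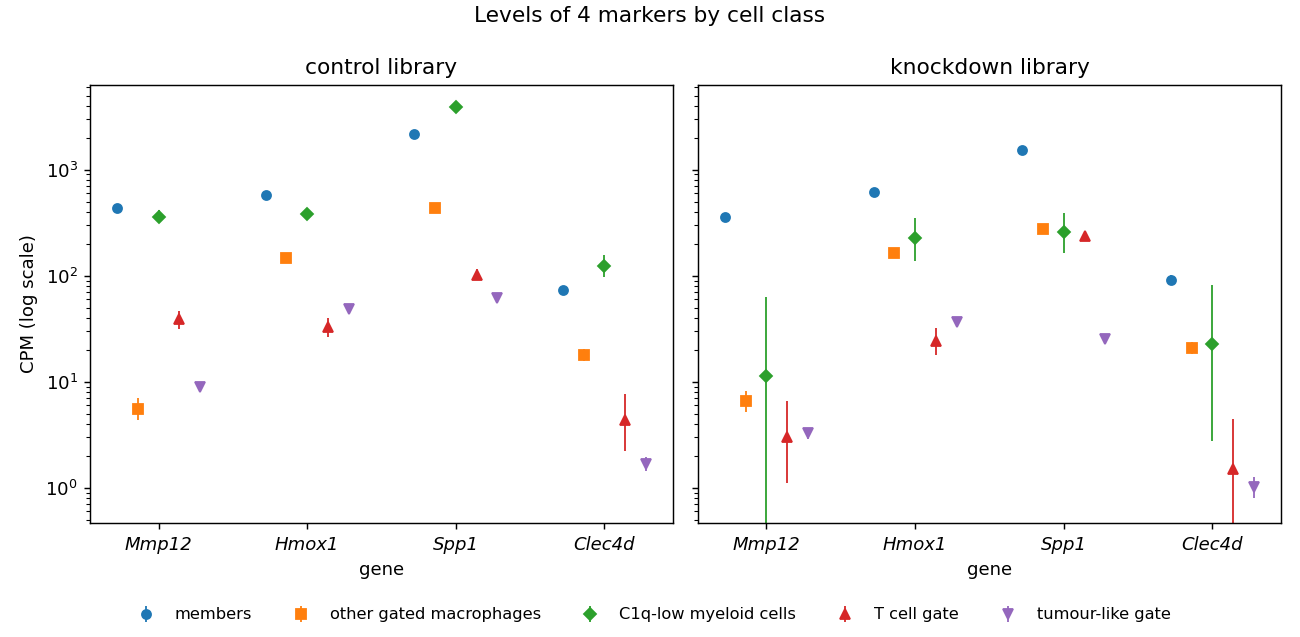
Level of 4 markers (CPM, log scale) in 5 classes of cells, for the control library (left) and the knockdown library (right); points are summed levels of 1 library and bars are exact 95% Poisson intervals. Members (blue circles) lie above the other gated macrophages, the T cell gate and the tumour-like gate for all 4 genes in both libraries, while the C1q-low myeloid cells exceed them for Spp1 and Clec4d in the control tumour.

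The marker lists of T cells, neutrophils and dendritic cells each summed to 26.4 CPM or less in the members, and those of monocytes and fibroblasts to more. The T cell list summed to 6.02 CPM in control members and 8.07 CPM in knockdown members, against 3532 and 4185 CPM in the T cell gate. This contrast was partly set in advance, since the list holds Cd3d, Cd3e and Cd3g, which were capped in members and required in the T cell gate. All 10 macrophage markers were detected in members, at a summed 83854 and 90836 CPM. Lyz2, C1qa, C1qb and C1qc of this list are genes of the gate, so the sum was partly set by the rule. The monocyte list, all 6 of its genes detected, summed to 267 and 237 CPM in members and to 160 and 92.8 CPM in the other gated macrophages, and F13a1 held most of it in members. Without F13a1 the list summed to 102 CPM in control members against 116 CPM in the others, and to 58.5 against 72.1 CPM in the knockdown tumour, so it was the lower one in members. Of the neutrophil markers Retnlg and Ly6g were at 0 in members of both libraries. Of the dendritic cell markers Cd209a was at 0, and the whole list summed to 3.68 and 6.61 CPM. All 5 fibroblast markers were detected, at a summed 410 CPM in control members and 599 CPM in knockdown members, against 486 and 645 CPM in the other gated macrophages, and the part of free RNA in these levels was not tested.

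Most genes of the glycolysis and hypoxia and lipid-associated lists were higher in members than in the other gated macrophages, and most genes of the class II and interferon lists were lower. Of 8701 genes compared (at least 100 UMIs in members or in the others of each library), 44 were at least 2-fold higher in members of both libraries (0.506% of the genes) and 44 were at least 2-fold lower (0.506%). Scaling by TMM in place of total counts gave 58 higher and 31 lower, and scaling by the median of ratios gave 62 and 30. These scalings moved the median log2 ratio of all genes up by 0.08 and 0.10 in the control tumour and by 0.12 and 0.12 in the knockdown tumour. Since the same cells chose the groups, these counts are a description.

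Besides the marker genes, the highest ranks went to Atp6v0d2, Il7r and Hilpda. Atp6v0d2, a subunit of the proton pump that acidifies lysosomes, was at 44.3 CPM in control members against 7.63 CPM in the others, and at 44.8 against 8.24 CPM in the knockdown tumour. Il7r, the interleukin-7 receptor alpha chain, was at 64.9 against 9.93 CPM and at 69.7 against 13.7 CPM. Hilpda, a lipid droplet protein induced by low oxygen, was at 151 against 33.2 CPM and at 215 against 41.4 CPM. The log2 ratios of members over others were 2.54, 2.71 and 2.18 in the control tumour and 2.44, 2.35 and 2.38 in the knockdown tumour. T cells also carry Il7r. The T cell list was at 6.02 and 8.07 CPM in members, where the gate limits its Cd3 genes, and the source of the Il7r RNA was not tested.

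Several of the other genes named by rank encode secreted or surface proteins. The metalloprotease Adam8 had log2 ratios of 2.37 in the control tumour and 2.03 in the knockdown tumour. F13a1, the A chain of coagulation factor XIII, had 1.92 and 3.1. Its level in members was 165 and 178 CPM, and its level in the other macrophages was 43.5 CPM in the control tumour and 20.8 CPM in the knockdown tumour. The chemokines Ccl6 (1.81 and 2.24) and Ccl9 (1.43 and 1.38), the glycoprotein Gpnmb (1.79 and 2.00) and the activating receptor Trem1 (1.52 and 1.75) were higher in members of both libraries. The galectin Lgals3 was abundant, at 3256 CPM in control members against 1138 CPM, and at 3186 against 1131 CPM in the knockdown tumour. The remaining genes named by rank among the 20 highest were AA467197, Selenbp1, Pmp22, Fbxo32, Fabp5, Gpr137b and the cationic amino acid transporter Slc7a2, with log2 ratios from 1.2 to 2.0.

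Genes lower in members included the chemokine Cxcl9, a ligand of the T cell receptor Cxcr3. Cxcl9 was at 251 CPM in control members against 599 CPM in the others, and at 194 against 462 CPM in the knockdown tumour, with log2 ratios of -1.90 and -1.94 in thinned cells. Tmem176a and Tmem176b, a pair of neighbouring membrane protein genes, were at 185 and 269 CPM in control members against 460 and 669 CPM. The lectin Clec4b1 (-2.12 and -2.52), the adhesion protein Negr1 (-2.99 and -2.0) and the immunoglobulin heavy chain Ighm (-2.48 and -2.23) had the lowest log2 ratios. Gbp2b, Ipcef1, Dnase1l3 and Calhm6 lay between -1.64 and -1.22. Ly6c1 and Ly6c2, Gbp2b, Chil3, the Clec4 genes and the class I H2 genes have close copies between which the counting could divide reads, so their single values are uncertain.

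**Figure D2:**
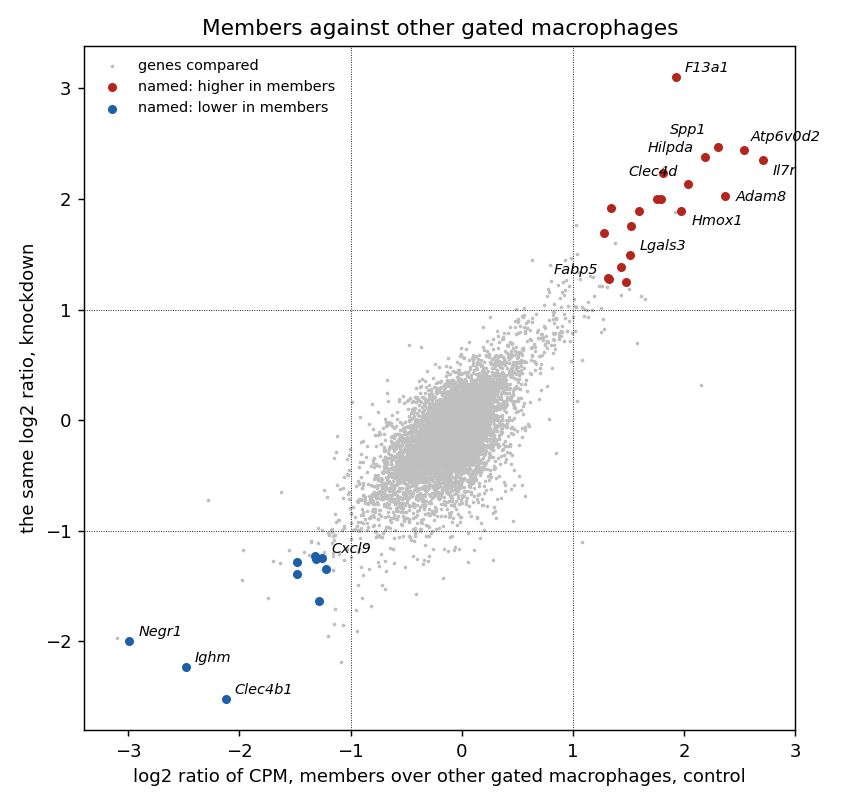
Log2 ratio of CPM in members over other gated macrophages for each of 8701 genes (grey points) in the control tumour (x axis) and the knockdown library (y axis), with genes named by rank in red (higher) and blue (lower) and dotted lines at 2-fold. Named genes lie beyond the dotted lines in both libraries, with F13a1 farther out in the knockdown tumour (3.1) than in the control tumour (1.92).

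Across all gated cells, members or not, at the same 3000 UMIs, levels are given by the number of Mmp12 UMIs. Mmp12 is part of the rule and this grouping was chosen after the data were seen, so the values are a description and no support for the markers of the group. Spp1 was at 788 CPM in control cells with 0 Mmp12 UMIs, 1675 CPM with 1, 2988 CPM with 2 and 2550 CPM with 3 or more. In the knockdown tumour it was at 432, 1803, 1719 and 2256 CPM in the same classes. In the knockdown tumour the largest step was from 0 to 1 UMI, and in neither library was every step upward. Hmox1 was at 217, 653, 813 and 1550 CPM in the control tumour and at 225, 748, 983 and 1313 CPM in the knockdown tumour. The class II gene H2-Aa went the other way, from 3376 CPM with 0 to 1495 CPM with 3 or more in the control tumour and from 4324 to 1516 CPM in the knockdown tumour. Ifit2, an interferon-induced gene, was at 206 CPM with 0 and 124 CPM with 3 or more in the control tumour, and at 389 and 134 CPM in the knockdown tumour. The classes with 2 Mmp12 UMIs held 57 control and 38 knockdown cells, so their values are the least precise.

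**Figure D3:**
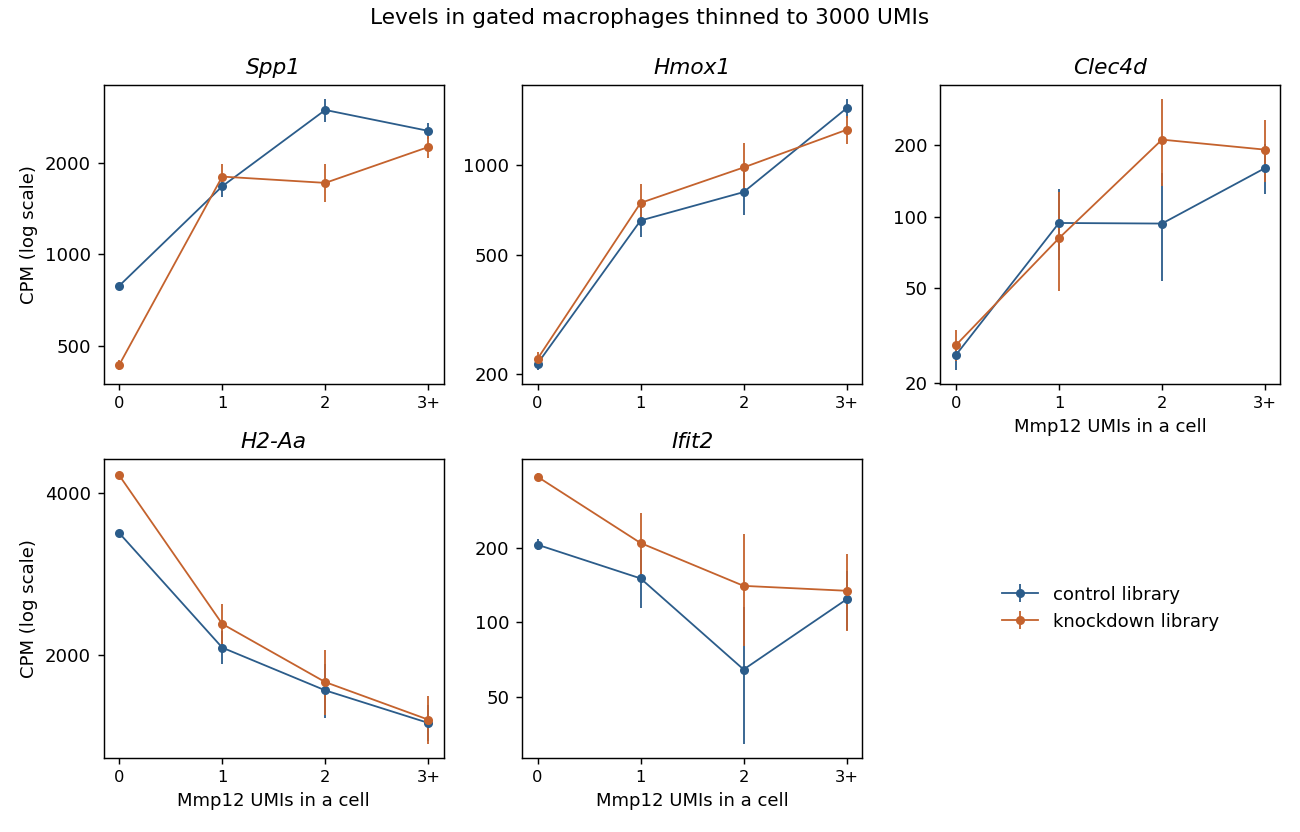
Level of 5 genes (CPM, log scale) in gated macrophages thinned to 3000 UMIs, grouped by the number of Mmp12 UMIs in the cell (x axis), for the control (blue) and knockdown (orange) libraries, with exact 95% Poisson intervals. Spp1, Hmox1 and Clec4d are lowest and H2-Aa and Ifit2 are highest in cells with 0 Mmp12 UMIs in both libraries.

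Apart from the genes of the rule, the genes whose detection in thinned cells set members apart most were AA467197, Capg, Spp1, Ccl6 and Adam8, ranked by the excess of the share of members with a UMI over that of the others, in the lower of the 2 libraries. AA467197 was detected in 68.5% of control members against 32.9% of the others and in 70.8% against 26.7% in the knockdown tumour. Capg, an actin-capping protein, was detected in 87.2% against 55.1% and in 82.2% against 47.7%. The T cell gate gave 28.3% and 29.8% for AA467197 and 54.5% and 55.5% for Capg, so the shares of the other macrophages were near this level for both genes.

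Of 21 genes, Mmp12 and those named by rank as higher in members, 15 matched a promoter in a RefSeq table of build GRCm38.p6. The 250 bases before each start were searched on both strands for 3 motifs: TGANTCA for AP-1, TGACNNNGC for the antioxidant response element, and ACGTG for the core of the hypoxia response element. TGANTCA was present for 4 of the 15 genes, against 7.82% of all genes in the table. ACGTG was present for 3 of the 15, against 18.5% of all genes, and TGACNNNGC for 0 of the 15, against 11.5%. A match describes letters only. The 4 sequences with TGANTCA are printed 5′ to 3′ on the gene's strand because Mmp12 helped to choose the cells and the others are higher in members, with all motif matches in capitals.

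Mmp12, 1 of its annotated starts, chr9:7347124-7347373, plus strand, with TGANTCA beginning 44 bases before the start: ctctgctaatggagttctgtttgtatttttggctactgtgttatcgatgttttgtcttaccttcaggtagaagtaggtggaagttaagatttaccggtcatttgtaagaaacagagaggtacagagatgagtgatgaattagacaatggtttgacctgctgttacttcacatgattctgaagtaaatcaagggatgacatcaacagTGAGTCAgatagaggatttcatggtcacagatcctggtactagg
Hilpda, 1 of its annotated starts, chr6:29272376-29272625, plus strand, with TGANTCA beginning 128 bases and ACGTG 43 bases before the start: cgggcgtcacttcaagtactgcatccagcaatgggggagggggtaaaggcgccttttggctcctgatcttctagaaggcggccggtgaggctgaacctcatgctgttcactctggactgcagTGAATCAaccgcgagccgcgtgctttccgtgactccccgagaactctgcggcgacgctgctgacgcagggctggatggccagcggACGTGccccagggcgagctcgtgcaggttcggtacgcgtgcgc
AA467197, chr2:122637637-122637886, plus strand, with TGANTCA beginning 73 bases before the start and ACGTG on both strands, beginning 82 and 81 bases before it, as 1 overlapping run: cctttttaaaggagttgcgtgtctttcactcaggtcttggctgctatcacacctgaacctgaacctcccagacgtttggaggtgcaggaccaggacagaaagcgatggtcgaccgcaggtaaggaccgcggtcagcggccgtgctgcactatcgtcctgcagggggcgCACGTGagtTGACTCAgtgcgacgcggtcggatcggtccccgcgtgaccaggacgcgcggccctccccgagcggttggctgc
Ccl9, chr11:83578637-83578886, minus strand, with TGANTCA beginning 53 bases before the start: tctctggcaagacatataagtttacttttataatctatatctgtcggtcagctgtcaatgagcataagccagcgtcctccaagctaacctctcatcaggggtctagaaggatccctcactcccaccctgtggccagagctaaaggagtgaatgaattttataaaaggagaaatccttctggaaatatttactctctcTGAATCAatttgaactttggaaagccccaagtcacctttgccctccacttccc

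By list, the glycolysis and hypoxia genes stood higher in members than in the other gated macrophages. Of 27 compared, 7 were at least 2-fold higher and 0 at least 2-fold lower in both libraries, and 25 had ratios above 0 in both (23.5% of all genes compared were above 0 in both and 50.2% below). Their median log2 ratio was 0.90 in the control tumour and 0.79 in the knockdown tumour, against -0.07 and -0.10 over all genes compared. Bnip3, a mitophagy receptor, was at 169 CPM in control members against 71.3 CPM, and at 212 against 91.3 CPM in the knockdown tumour. The glycolytic enzyme Gapdh was at 4220 against 2487 CPM and at 4208 against 2565 CPM. Slc2a1, the glucose transporter, had log2 ratios of 1.02 in both libraries. Other classes of cells also held much RNA of the list. In the control tumour it summed to 14054 CPM in members, 7819 CPM in the others, 11514 CPM in the T cell gate and 13797 CPM in the tumour-like gate. In the knockdown tumour the same classes had 14359, 8398, 11366 and 13549 CPM. The C1q-low myeloid cells had 12429 CPM in the control tumour and 9055 CPM in the knockdown tumour.

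Most lipid-associated macrophage genes and most haem and oxidative stress genes were higher by smaller amounts. Of 18 lipid-associated genes 4 were at least 2-fold higher (Fabp5, Gpnmb, Spp1 and Lgals3) and 17 were above 0 in both libraries, with medians of 0.57 and 0.60. The summed RNA of the list did not follow its median: it was 62782 CPM in control members against 69779 CPM in the others, and 67864 against 61986 CPM in the knockdown tumour. The gene not above 0 in both was Apoe, the lipid carrier, at 50235 CPM in control members against 62664 CPM and at 55987 against 55380 CPM in the knockdown tumour. Of 16 haem and oxidative stress genes only Hmox1 passed 2-fold in both libraries, and 11 were above and 4 below 0 in both, with medians of 0.47 and 0.55. The ferritin heavy chain Fth1 was at 21534 against 14020 CPM in the control tumour and at 26760 against 16165 CPM in the knockdown tumour.

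The next lists are read against the 0.506% of all genes that were at least 2-fold higher in both libraries, the 0.506% lower, and the 23.5% above and 50.2% below 0. Of 13 matrix protease, inhibitor and matrix genes, 2 passed 2-fold: Adam8 and Plaur, the urokinase receptor, at 180 against 84.0 CPM in the control tumour and 165 against 82.6 CPM in the knockdown tumour. Of 20 inflammatory genes 4 passed 2-fold (Il1rn, Nos2, Ccl6 and Ccl9), but 9 were above and 9 below 0 in both libraries, with medians of 0.19 and -0.04. The chemokines Cxcl10 (-0.80 and -0.80) and Ccl4 (-0.66 and -0.87) were among the genes below 0. Nos2 was at 14.9 against 5.71 CPM in the control tumour and at 25.9 against 8.56 CPM in the knockdown tumour, while Tnf was lower, at 179 against 340 CPM in control and 235 against 471 CPM in knockdown members. Of 11 C-type lectins 1 was 2-fold higher (Clec4d) and 1 lower (Clec4b1). Of 8 alternative activation genes 0 passed in either direction, and the mannose receptor Mrc1 was at 271 against 262 CPM and at 243 against 204 CPM.

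Class II and most interferon response genes were lower in members, and class I genes differed less. All 8 class II genes compared were below 0 in both libraries, 2 of them by at least 2-fold, with medians of -0.92 and -0.80. The class II gene H2-Eb1 was at 2473 CPM in control members against 5562 CPM and at 3512 against 7076 CPM in the knockdown tumour. Ciita, the class II transactivator, was at 22.6 against 57.9 CPM and at 27.4 against 58.8 CPM. Of 23 interferon response genes 22 were below 0 in both libraries and 3 by at least 2-fold (Ifit2, Ifih1 and Cxcl9), with medians of -0.60 and -0.52. Of 14 class I genes 12 were below 0 in both, where 50.2% of all genes compared lay, with medians of -0.26 and -0.28, and 0 passed 2-fold. The abundant H2-D1 had log2 ratios of -0.003 and 0.05, and B2m of -0.013 and 0.058. Of 12 resident-type macrophage genes 9 were below 0 in both libraries and 2 above, with Cx3cr1 at 226 against 342 CPM in the control tumour.

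The members were also split by whether a UMI of Mmp12 was detected. Mmp12 is part of the rule, members without it reached the threshold through the rest of the rule, and the split and the ranking of its genes were chosen after the data were seen, so the values describe the members and support nothing. Of 5792 genes compared (at least 50 UMIs), 21 were at least 2-fold higher with Mmp12 in each library (0.363%) and 0 were at least 2-fold lower. The collagenase Mmp13 was at 75.3 CPM with Mmp12 against 8.59 CPM without it in the control tumour, and at 44.9 against 3.59 CPM in the knockdown tumour. Nos2, the inducible nitric oxide synthase, was at 25.5 against 7.77 CPM and at 44.3 against 14.4 CPM. The fatty acid genes Fabp4 and Cd36 had log2 ratios of 2.05 and 1.56 in the control tumour and 2.01 and 1.28 in the knockdown tumour. Hmox1 was at 975 against 308 CPM in the control tumour and 912 against 418 CPM in the knockdown tumour.

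In the other direction no gene passed 2-fold in both libraries. The chemokine Ccl8 was at 656 CPM with Mmp12 against 1232 CPM without it in the control tumour, and at 544 against 1245 CPM in the knockdown tumour. Tmem176a and Tmem176b had log2 ratios of -0.99 and -0.97 in the control tumour and -0.89 and -0.99 in the knockdown tumour. Median depth was 7283 UMIs with Mmp12 and 6890 without it in the control tumour, and 5736 and 5890 in the knockdown tumour. The lipid-associated list had medians of 0.68 and 0.54, against -0.03 and -0.02 over all genes compared. Its summed RNA went the other way. It was 56327 CPM with Mmp12 against 67076 CPM without it in the control tumour, and 59229 against 73307 CPM in the knockdown tumour.

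Between the libraries, members of the knockdown tumour carried less RNA of cell cycle genes and more RNA of interferon response and class II genes. Of 7336 genes compared in members (at least 100 UMIs in 1 library), 10 were at least 2-fold higher in the knockdown tumour (0.136%) and 27 at least 2-fold lower (0.368%). These counts depended on the settings, with 1 and 6 of 2530 genes in thinned cells and 5 and 53 of 6301 with at least 5 UMIs of the pair. With 1 library per group these are differences between 2 samples of cells.

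Spp1 was the marker with the largest difference outside the rule, at 2146 CPM in control members and 1522 CPM in knockdown members, a log2 ratio of -0.50 (-0.55 to -0.44). The same ratio in the other gated macrophages was -0.66. Clec4d had a log2 ratio of 0.33 (0.06 to 0.59) in members and 0.22 in the others. Hmox1 had 0.08 (-0.01 to 0.18) and 0.16, so its range in members included 0.

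Most cell cycle genes were lower in knockdown members. Of 25 compared, 0 were at least 1.25-fold higher (7.88% of all genes) and 23 were at least 1.25-fold lower (8.38%), 3 of them by 2-fold, with a median log2 ratio of -0.69. Pcna, the replication clamp, was 1 of the 2 that did not pass, at -0.18 (-0.39 to 0.02). In the other gated macrophages 0 of the 25 were higher (5.98% of the same genes) and 12 were lower (3.49%), with a median of -0.29. Aurkb, a mitotic kinase, was at 23.7 CPM in control members and 10.3 CPM in knockdown members, a log2 ratio of -1.21 that was -0.38 in thinned cells. Tyms, which makes thymidylate for DNA synthesis, was at 36.1 and 16.4 CPM, and cyclin A (Ccna2) at 25.4 and 11.5 CPM. After thinning, 28.8% (25.1 to 32.6) of control members and 17.2% (13.3 to 21.8) of knockdown members held at least 3 UMIs of the list, against 31.4% and 29.5% of the other macrophages. Of the 2 single genes of the list looked at in the same way, Top2a was detected in 10.6% (8.24 to 13.4) of control and 9.85% (6.83 to 13.6) of knockdown members. Mki67 was detected in 9.07% (6.87 to 11.7) and 4.62% (2.61 to 7.50). The difference between members and others was not tested, and the T cell gate held 61.1% and 63.0%. Cdca3, Asf1b, Nusap1 and Tacc3, all genes of dividing cells, were also among the 10 lowest genes by rank, with log2 ratios from -1.36 to -1.07. Among members with at least 5 UMIs of the pair the ratio was -1.93 for Ccna2 and -2.04 for Nusap1.

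Interferon response genes were higher in knockdown members. Of 23 compared, 16 were at least 1.25-fold higher (7.88% of all genes) and 1 was lower (Cxcl9; 8.38% of all genes), with a median log2 ratio of 0.42. In the other macrophages 11 were higher (5.98% of the same genes) and 1 lower (3.49%), with a median of 0.23. Ifit2 was at 90.1 CPM in control members and 180 CPM in knockdown members. Isg15, a ubiquitin-like modifier, was at 308 and 545 CPM. Cxcl9 was at 251 and 194 CPM. Of 8 class II genes 4 were higher (H2-Aa, H2-Ab1, H2-Eb1 and Cd74) and 1 lower (H2-DMb2), with medians of 0.33 in members and 0.15 in the others. Of 27 glycolysis and hypoxia genes 7 were higher and 0 lower, with medians of 0.15 and 0.18. In each tumour Ifit2 and H2-Eb1 were nevertheless lower in members than in the other macrophages.

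**Figure D4:**
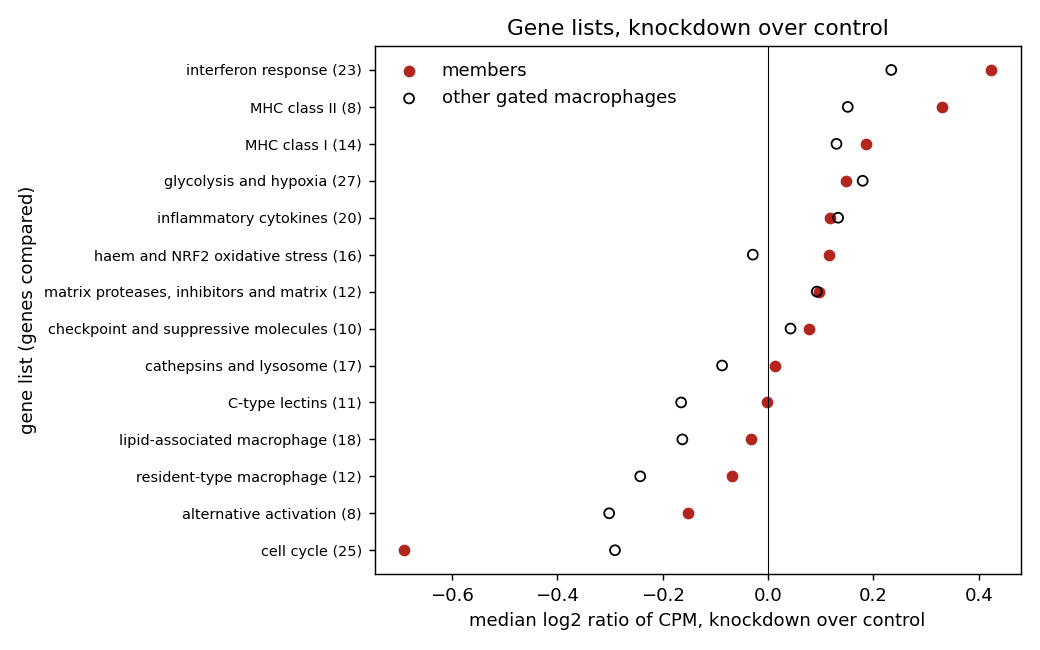
Median log2 ratio of CPM, knockdown over control (x axis), for each of 14 gene lists (y axis, with the number of genes compared), in members (filled red) and in other gated macrophages (open). The cell cycle list lies lowest in members (-0.69, others -0.29) and the interferon list highest (0.42, others 0.23).

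Several of the largest single-gene differences between libraries were also seen in the other macrophages. Chil3, a chitinase-like protein of monocytes and alternatively activated macrophages, had 387 UMIs in 66 control members (47.5 CPM) and 12 UMIs in 6 knockdown members (2.94 CPM). Its log2 ratio was -4.02 (-5.11 to -3.06) in members and -5.03 in the others. Ly6c2, an antigen of inflammatory monocytes, was at 24.4 and 9.30 CPM, a log2 ratio of -1.39 in members and -1.13 in the others. In members 5 cells held 34.2% of its control UMIs and 52.6% of its knockdown UMIs. In thinned cells Ly6c2 was detected in 4.8% (3.2 to 6.9) of control and 2.8% (1.3 to 5.2) of knockdown members. The T cell gate gave more, 27.4% and 18.1%. Slc15a2, an oligopeptide transporter, had 0 UMIs in control members and 108 UMIs in 71 knockdown members (26.4 CPM), a log2 ratio of 6.17 when the control count is set to a floor of 3, with a lower end of the counting range of 5.58. In thinned cells, with fewer UMIs over the same floor, the value was 3.96. The other macrophages had 0.296 CPM of it in the control tumour and 24.1 CPM in the knockdown tumour.

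Granzyme RNA in members came from a handful of cells. Gzmc had 27 UMIs in control and 1058 UMIs in knockdown members, and 5 cells held 99.4% of the knockdown UMIs. Gzmb had 19 and 155 UMIs, with 97.4% of the latter in 5 cells. The 4 NK cell markers summed to 0.368 CPM in control members and 7.83 CPM in knockdown members, and their part in these 2 ratios was not tested. Without members that held a UMI of Gzmc, Gzmb or a T or NK cell marker, 5 genes were 2-fold higher and 27 lower. Cryab, a small heat shock protein, had 61.7% of its 107 knockdown UMIs in 5 cells, and its log2 ratio of 1.63 was 0.26 in thinned cells and 0.42 without the cells with the highest doublet scores. Ptn, the growth factor pleiotrophin, was at 149 and 54.3 CPM, with 52.4% of its control UMIs in 5 cells, and its log2 ratio of -1.45 turned to 0.43 without the cells with the highest doublet scores and was -0.022 in thinned cells. Further genes ranked as higher in knockdown members were Tnfrsf23, Ly6c1, Tnfrsf9, Gpx8 and AW011738, with log2 ratios from 1.10 to 1.31, and 0.69 to 1.21 in the others. The value for Tnfrsf9 was -0.13 in thinned cells and 0.67 with cells weighted equally. Ly6c1 had 55.9% of its knockdown UMIs in 5 cells, and its log2 ratio of 1.24 was 0.35 without the cells with the highest doublet scores.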

How the data were processed

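RNA of single cells from 2 tumours was captured on the 10x Genomics platform. The authors deposited raw UMI counts for each cell over 34097 genes, without normalisation. Per the file headers they come from Cell Ranger 6.1.0, and from 3.1.0 per the submitters' processing notes. The build, annotation and cell filters are not given in the sources used here. Counting error shrinks with depth, and median cells held 10312 control and 7496 knockdown UMIs.

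Counts were summed over cells of 1 class and library with Python 3.11.15, numpy 2.4.6 and scipy 1.17.1. The log2 ratios were checked on simulated counts with known changes. Log2 ratios are ratios of CPM, with the range that both 95% Poisson intervals allow. A count of 0 was set to a floor of 3 for ratios. Doublets were kept; alternatives left out cells with the highest Scrublet scores (scanpy 1.11.5, 0.8% per 1000 cells), which held 3.89% of control and 6.43% of knockdown members. Thinning drew 3000 UMIs per cell with a fixed seed. Genes of the gate, mitochondrial genes and predicted genes were not named. Named genes were the markers, the 20 highest and 10 lowest genes of members against others (at least 20 CPM), the 10 highest and 10 lowest between libraries, the 5 with the largest excess in detection, and the best expressed genes of each list or those past 2-fold; other list genes were named after their values were seen. The second gene of the pair that chose the cells is not reported here. Members, lists and rules were chosen with earlier results of these data known. Alternatives covered the threshold, scaling, depth, doublets, low counts and the gate.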

Additional observations from a re-analysis of the deposited data

Results flagged for a closer look

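In 5 of the 103 named genes searched (those outside the rule with at least 100 UMIs in a class), the log2 ratio of knockdown over control had opposite signs in members and in the other gated macrophages, with counting ranges that left out 0 in both. Over all 7336 genes compared between libraries in members the same held for 16 (0.218%). The difference between the 2 ratios was not tested, since each group had 1 library. Apoe had 0.16 (0.15 to 0.17) in members and -0.18 (-0.18 to -0.17) in the others. Ccl6 had 0.21 (0.10 to 0.33) in members and -0.22 (-0.38 to -0.06) in the others, and the lectin Clec4n had 0.20 (0.06 to 0.34) and -0.17 (-0.28 to -0.05). Ccl2, a chemokine that draws monocytes, had -0.29 (-0.36 to -0.22) in members and 0.10 (0.06 to 0.15) in the others, and fibronectin (Fn1) had -0.20 (-0.32 to -0.09) and 0.34 (0.24 to 0.44).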

How the results depend on the processing

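No paired analysis was possible because each group was 1 library, and no library could be left out for the same reason. The knockdown share of members was the lower one under all alternatives run. At 3000 UMIs per cell the shares were 20.4% and 13.9%, a ratio of 0.681. At least 2 UMIs gave 40.05% and 24.0%, at least 5 UMIs gave 22.1% and 11.5%, and a rate of 3 per 10000 gave 37.8% and 26.05%, a ratio of 0.690. The number of genes past 2-fold depended on the settings. Members against others gave 68 lower with cells weighted equally, 85 higher and 295 lower from 10 UMIs up, 70 lower in thinned cells, and 67 lower with at least 5 UMIs. Knockdown against control gave 214 higher and 336 lower from 10 UMIs up, 1 and 6 in thinned cells, 3 and 43 without the highest doublet scores, 5 and 53 with at least 5 UMIs, 16 higher with the rate, and, in an alternative chosen after seeing the data, 5 higher without members holding T or NK cell RNA. The cause was not tested beyond the smaller or larger number of genes and cells compared.

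The Spp1 log2 ratio between libraries was -0.42 with equal weights, -0.37 in thinned cells, -0.35 with at least 5 UMIs and -0.575 with the rate. Ptn turned to 0.43 without the highest doublet scores and Tnfrsf9 to -0.13 in thinned cells. In thinned cells the knockdown median of members against others turned to -0.041 for C-type lectins and was 0.55 for matrix and 0.36 for alternative activation genes, and the control medians were -1.01 for class II, -0.41 for class I and -0.27 for cell cycle genes. The class II control median was -0.95 with equal weights, -0.84 with TMM, -0.82 with the median of ratios and -0.77 with the rate, and its knockdown median was -0.69, -0.68 and -0.65 with the last 3. With TMM and the median of ratios the knockdown median of inflammatory genes was 0.07 and 0.08, and that of cathepsins was 0.15 and 0.17 in the control tumour and 0.28 and 0.29 in the knockdown tumour. Class I was -0.17 with the median of ratios and resident-type genes -0.15 with the rate, both in the control tumour. The cell cycle median between libraries was -1.10 with at least 5 UMIs.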

Other observations

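Myeloid cells that passed the Lyz2, Cd3 and tumour limits of the gate but had fewer C1q UMIs also held RNA of the marker pair in the control tumour. Of 141 such cells 32 (22.7%, 16.1 to 30.5) held at least 3 UMIs of the pair, and of 36 knockdown cells 2 (5.56%, 0.680 to 18.7) did. The control cells had 360 CPM of Mmp12 and 3919 CPM of Spp1, and the knockdown cells 1 UMI of Mmp12 and 259 CPM of Spp1. Their median depths were 3394 and 2346 UMIs, and the monocyte list summed to 3474 and 4781 CPM. Chil3 was at 1310 CPM in the control tumour and 564 CPM in the knockdown cells of this class.

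Cathepsin and lysosome genes had median log2 ratios of members over other macrophages of 0.07 in the control tumour and 0.16 in the knockdown tumour. Of 17 compared, 11 were above 0 in both libraries (23.5% of all genes) and 5 below (50.2%), and 0 passed 2-fold, which 0.506% of all genes did in each direction. Cathepsin D (Ctsd) was at 2309 CPM in control members against 1526 CPM and at 2351 against 1265 CPM in the knockdown tumour. Of 10 checkpoint and suppressive genes 0 passed 2-fold, 2 were above 0 in both libraries and 5 below. Cd274, which encodes PD-L1, was at 150 CPM in control members against 183 CPM and at 196 against 209 CPM in the knockdown tumour.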
